A study of Mus musculus with 6 samples.

Results

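The 8 genes described here encode ligands of the TNF superfamily, and all 8 listed genes (Tnfsf4, Tnfsf8, Ltb, Lta, Tnf, Tnfsf10, Tnfsf11 and Tnfsf14) were present among the 17438 genes of the deposited count table. They were taken by name, by a rule that uses no measured value, though with earlier results of these data known. RNA came from group 2 innate lymphoid cells (ILC2s), lymphocytes without antigen receptors that sit in barrier tissues and answer the epithelial alarm cytokine IL-33 with type 2 cytokines. Per the labels, the ILC2s were sorted from the lungs of C57BL/6-type mice (written CB57BL/6), received IL-33 and were recovered from culture. The 3 control samples were wild type (WT1, WT2 and WT3). The 3 others carried the targeted Cd48 allele of the strain B6.129S4-Cd48tm1Rsr/EpaulJ (CD48 KO1, KO2 and KO3). All 6 samples had IL-33, so no untreated level is known. Dose, culture time and mouse age are not given in the sources used.

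TNF superfamily ligands are mostly membrane-anchored proteins that work as trimers on the cell surface or after cleavage by proteases. Each binds members of the TNF receptor superfamily on a neighbouring cell, and the receptors recruit TRAF adaptors that switch on NF-κB, or death domains that can trigger apoptosis. In ILC2s these ligands are known as a route of contact with T cells: OX40L (Tnfsf4) is the costimulatory ligand through which lung ILC2s act on helper and regulatory T cells.

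Library totals ran from 14928623 to 27450400 counts. The Cd48 transcript checked the labels: it stood at 58.2, 46.6 and 41.6 CPM (counts per 1000000 counts of a library, scaled by edgeR's TMM factors) in the WT libraries and 4.52, 5.59 and 4.40 CPM in the KO libraries. Here and below, values of a genotype follow the order of its libraries 1, 2 and 3. WT1 was unlike the rest: over genes, its log2 CPM correlated with those of the other 5 libraries at 0.922 to 0.932 (Pearson), and those 5 among themselves at 0.980 to 0.988. In WT1 transcripts over 8 kb were low, with a median log2 difference of -0.91 from the mean of WT2 and WT3, against 0.28 for those up to 1 kb. Fold changes are therefore given with all 6 libraries and without WT1, in the second case as 2 WT against 3 KO libraries. Separate animals or cultures are not stated in the labels, and p-values then measure only the spread of these samples, which can be technical.

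Among the 8 ligand genes, the OX40 ligand gene Tnfsf4 and the lymphotoxin β gene Ltb were lower in KO. The CD30 ligand gene Tnfsf8 was higher. In each of these 3 genes the genotypes did not overlap, as in 19.3% of all tested genes with all 6 libraries and 30.0% without WT1. Without WT1, edgeR called these 3 genes, 1 higher and 2 lower, and the other 5 did not pass (quasi-likelihood test, Benjamini-Hochberg (BH) adjusted p under 0.05 over 13643 genes). The same rule called 1.82% of all genes (1.17% higher and 0.652% lower). With all 6 libraries edgeR called 0 of the 8, where it called 0.03% of 13317 genes (0.015% higher and 0.015% lower). At an unadjusted p under 0.05, 4 of the 8 passed with all 6 libraries, against 6.89% of all genes, and 5 of the 8 without WT1, against 13.7%. On the same 6 libraries DESeq2 called Tnfsf4, Tnfsf8 and Ltb, 1 higher and 2 lower, against 0.811% of all genes (0.421% higher and 0.39% lower). Limma-voom called the same 3 when it weighted libraries by quality, against 0.713% of all genes (0.383% higher and 0.33% lower), and 0 of 8 without weights. The quality weight of WT1 was 0.0919, and the others had 1.08 to 2.36. In bulk RNA, fewer cells that carry a transcript and less of it per cell cannot be told apart.

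**Figure D1:**
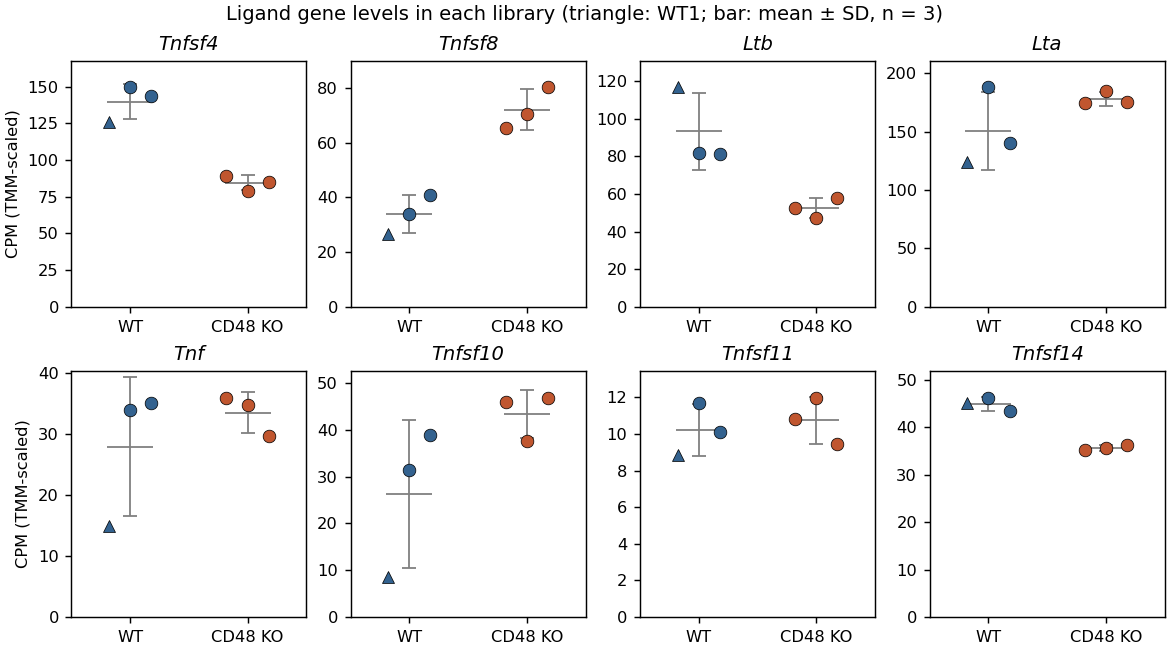
Level of each ligand gene in each library, in CPM scaled by TMM on a linear axis from 0. Blue marks WT, orange marks CD48 KO, triangles mark WT1 and grey bars give the mean ± SD (n = 3). Tnfsf4, Ltb and Tnfsf14 lie lower in all 3 KO libraries than in every WT library, Tnfsf8 lies higher, and the other 4 genes overlap.

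Tnfsf4 (ENSMUSG00000026700.4, GRCm38 chromosome 1, 161395409 to 161418410, plus strand) encodes OX40L, the ligand of OX40. It stood at 126.2, 149.5 and 143.9 CPM in the WT libraries and at 89.5, 79.1 and 84.8 CPM in the KO libraries. All 3 KO libraries lay below the lowest WT library, which was WT1. Means were 139.8 ± 12.2 CPM for WT and 84.5 ± 5.17 CPM for KO (SD, n = 3). Their log2 fold change was -0.73 with all libraries (SE 0.12, 95% interval -1.01 to -0.45, adjusted p 0.525, edgeR, BH). Without WT1 it fell by 0.79 on the log2 scale (SE 0.08, 95% interval -0.96 to -0.63, adjusted p 0.000177, edgeR, BH), so that WT2 and WT3 held 1.73 times the KO level. DESeq2 with all 6 libraries gave -0.73 (adjusted p 2.87e-05, BH).

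Tnfsf4 lies on the chromosome of the targeted gene, with its start 10.3 Mb before that of Cd48 on the side of lower coordinates. The name of the KO strain gives 129S4 as the donor, and whether Tnfsf4 lies in a donor segment was not tested. Of 21 genes tested within 2 Mb of Tnfsf4 without WT1, 2 fell and 0 rose, where 0.652% of all genes fell and 1.17% rose. They were the peroxidase gene Prdx6 (log2 fold change -0.75, SE 0.05) and Gas5, a non-coding RNA that hosts small nucleolar RNAs (-0.57, SE 0.08), which had values of -0.96 and -0.56 with all 6 libraries. The median over the 21 genes was -0.08, against 0.0005 over all genes tested. With all 6 libraries the median was 0.04 and edgeR called 0 of 20 genes in this window, and 0 in windows of 1 and 5 Mb.

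Tnfsf8 (ENSMUSG00000028362.2, chromosome 4, 63831308 to 63861347, minus strand) encodes CD30L, the ligand of CD30. Its levels were 26.8, 34.0 and 41.0 CPM in the WT libraries and 65.5, 70.6 and 80.2 CPM in the KO libraries. Every KO library lay above the highest WT library. Means were 33.9 ± 7.09 CPM for WT and 72.1 ± 7.46 CPM for KO (SD, n = 3). The difference was 1.09 on the log2 scale (SE 0.18, 95% interval 0.65 to 1.53, adjusted p 0.544, edgeR, BH). Without WT1 Tnfsf8 rose by 0.94 on that scale (SE 0.12, 95% interval 0.68 to 1.20, adjusted p 0.00217, edgeR, BH), a 1.92-fold higher level. Within 2 Mb of Tnfsf8, 0 of 17 genes were called by edgeR in either fit.

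Because one of these ligand genes was higher and the other lower, their balance moved within each library, whatever the scaling to library size. Per kb of transcript, the Tnfsf4 level was 9.73, 9.09 and 7.25 times that of Tnfsf8 in WT1, WT2 and WT3. In KO1, KO2 and KO3 the ratio was 2.82, 2.32 and 2.18. Each KO ratio lay below the lowest WT ratio. This ratio was formed after both genes' values were known, and no test was made of it.

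Ltb, Tnf and Lta lie side by side on chromosome 17 in a span of 10.9 kb inside the major histocompatibility complex. Lta encodes lymphotoxin α, which is secreted alone as a trimer or held at the membrane in a complex with lymphotoxin β, the product of Ltb. The membrane complex binds the lymphotoxin β receptor, whereas Tnf and secreted lymphotoxin α bind the TNF receptors. The 3 start regions are shown because these neighbours had unlike values, with Ltb alone called. The sequences come from the RefSeq promoter table (GRCm38.p6), which matched 7 of the 8 ligand genes (not Tnfsf4). Each is written 5′ to 3′ on the gene's strand and stops before the start given by RefSeq or GENCODE M21, whichever comes first. Capitals mark matches, on either strand, to a loose form of the κB site bound by NF-κB, which is GGG, any 5 bases and CC. The windows were chr17:35194257-35194438 (plus strand) for Ltb, chr17:35202008-35202257 (minus strand) for Tnf and chr17:35205352-35205601 (minus strand) for Lta.
Ltb: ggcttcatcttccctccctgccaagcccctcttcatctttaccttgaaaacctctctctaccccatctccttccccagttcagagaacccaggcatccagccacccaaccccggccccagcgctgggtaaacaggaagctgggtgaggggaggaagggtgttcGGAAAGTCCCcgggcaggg
Tnf: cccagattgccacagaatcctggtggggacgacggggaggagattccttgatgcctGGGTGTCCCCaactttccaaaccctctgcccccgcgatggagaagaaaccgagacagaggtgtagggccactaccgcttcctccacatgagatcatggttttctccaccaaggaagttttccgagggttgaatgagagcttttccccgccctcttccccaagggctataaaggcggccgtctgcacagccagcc
Lta: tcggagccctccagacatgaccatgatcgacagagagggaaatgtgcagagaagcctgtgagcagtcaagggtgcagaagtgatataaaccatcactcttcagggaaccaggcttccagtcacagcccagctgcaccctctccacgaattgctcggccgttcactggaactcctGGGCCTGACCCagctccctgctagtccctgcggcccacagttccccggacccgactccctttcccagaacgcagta

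In the capitals of Ltb, 87 to 78 bases before the RefSeq start, the opposite strand reads GGGACTTTCC. These letters were taken from the Ltb promoter itself and then counted, so the match in Ltb was fixed in advance. Over the 250 bases before the start, they occurred in 0.140% of 32851 promoters on either strand. Among the 7 ligand genes they occurred in 1, Ltb itself. The share gives how rare the letters are and is no test of Ltb. The loose form matched in Ltb, Tnf, Lta, Tnfsf11 and Tnfsf14 (5 of 7) and in 45.8% of all promoters. Ltb holds 4 further loose matches, which overlap each other and are counted by strand, between its GENCODE and RefSeq starts, outside the printed window. The AP-1 letters TGANTCA matched in 1 of the 7, Tnfsf14 (6.75% of all promoters) and the GATA letters AGATAA in 0 of the 7 (9.99% of all promoters). These shares overlap, since a promoter can hold several motifs. A match gives letters only, and no binding was measured.

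Ltb (ENSMUSG00000024399.5, 35194439 to 35196320, plus strand) stood at 116.8, 82.0 and 81.2 CPM in the WT libraries and at 52.5, 47.2 and 57.8 CPM in the KO libraries. The genotypes did not overlap, and WT1 was the highest library. Means were 93.3 ± 20.3 CPM for WT and 52.5 ± 5.32 CPM for KO (SD, n = 3). The log2 difference was -0.83 (SE 0.18, 95% interval -1.26 to -0.40, adjusted p 0.623, edgeR, BH). Without WT1 Ltb fell by 0.63 on the log2 scale (SE 0.10, 95% interval -0.84 to -0.42, adjusted p 0.00602, edgeR, BH). DESeq2 with all 6 libraries called it too, at -0.83 (adjusted p 0.0184, BH). The summed level of 8 T cell marker genes was also lower in KO, at 144.3 to 166.2 CPM against 205.2 to 263.0 CPM, and its part in the Ltb result was not tested.

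Lta (ENSMUSG00000024402.5, 35203165 to 35205351, minus strand) was at 123.9, 188.0 and 140.0 CPM in the WT libraries and at 174.3, 185.1 and 175.7 CPM in the KO libraries. The KO libraries lay close together inside the wide WT range. It had a log2 fold change of 0.24 (SE 0.17, 95% interval -0.16 to 0.64) with all libraries and 0.13 (SE 0.11, -0.12 to 0.38) without WT1, and neither passed (adjusted p 0.693 and 0.689, edgeR, BH). The direction of Lta turned when WT1 and WT3 were both left out (-0.08).

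Tnf (ENSMUSG00000024401.14, 35199381 to 35202007, minus strand), the founding cytokine of the family, was at 14.9, 34.0 and 35.1 CPM in the WT libraries and at 36.0, 34.9 and 29.7 CPM in the KO libraries. WT1 alone was low, and the other 5 libraries lay within 29.7 to 36.0 CPM. The log2 fold change was 0.26 (SE 0.32, 95% interval -0.50 to 1.02, adjusted p 0.766) with all libraries and -0.04 (SE 0.12, -0.29 to 0.21, adjusted p 0.927) without WT1 (edgeR, BH), so its direction rests on WT1.

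Read per kb of transcript, Lta exceeded Ltb 1.09-, 2.35- and 1.77-fold in the WT libraries and 3.40-, 4.02- and 3.11-fold in the KO libraries. The ratio of this pair was higher in each KO library than in any WT library, a description made after the values were seen. The ratio of Lta to Tnf overlapped between the genotypes, at 4.73 to 9.87 in WT and 5.73 to 6.998 in KO.

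The surroundings of this cluster hold the class I antigen presentation genes. Of 131 genes tested within 2 Mb of Ltb without WT1, 10 fell and 0 rose, where 0.652% of all genes fell. They were Tap1, Tapbp, Psmb9, H2-Q5, H2-Q6, H2-Q7, H2-K1, H2-T22, H2-T23 and H2-D1, which encode class I and class I-like heavy chains, a proteasome subunit and parts of the peptide-loading machinery. Their log2 fold changes ran from -0.29 (H2-D1 and Tap1) to -0.57 (H2-Q5), against -0.63 for Ltb. None of the 10 passed with all 6 libraries, and WT1 moved 5 of them by over 1.5 times: H2-T23 was at -0.13 (-0.34 without WT1), Tap1 at -0.14 (-0.29), H2-Q6 at -0.24 (-0.49), H2-Q7 at -0.26 (-0.51) and H2-Q5 at -0.31 (-0.57). The other 5 ran from -0.29 (H2-D1) to -0.49 (H2-T22) with all 6. The median over the 131 genes was -0.07 without WT1. The H2-Q genes are near-identical in places, and their separate values are uncertain. With all 6 libraries edgeR called 0 of 130, and their median was -0.13.

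Tnfsf14 (ENSMUSG00000005824.7, chromosome 17, 57189492 to 57194177, minus strand) encodes LIGHT, which binds HVEM and the lymphotoxin β receptor. Its levels were 45.1, 46.3 and 43.4 CPM in the WT libraries and 35.1, 35.7 and 36.4 CPM in the KO libraries. The genotypes did not overlap, and libraries of each genotype lay close together, WT1 among them. A log2 fold change of -0.33 came from all libraries (SE 0.11, 95% interval -0.60 to -0.06, unadjusted p 0.0232, adjusted p 0.690, edgeR, BH), and without WT1 -0.32 (SE 0.10, -0.54 to -0.11, adjusted p 0.144). None of the 25 fits called it, and each gave a negative value, from -0.38 to -0.25. These fits share libraries. Of the 13317 tested genes, 9.11% lay lower in all KO libraries than in every WT library and 10.2% lay higher (19.3% in all), against 3 and 1 of the 8 ligand genes. Without WT1 the 8 gave the same counts, where 14.3% of all genes lay lower and 15.8% higher (30.0% in all).

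Tnfsf10 (ENSMUSG00000039304.11, chromosome 3, 27317028 to 27342427, plus strand) encodes TRAIL, a ligand that can set off apoptosis through death receptors. It was at 8.45, 31.3 and 38.8 CPM in the WT libraries and at 45.9, 37.5 and 46.9 CPM in the KO libraries. WT1 lay far below all others, and KO2 lay below WT3. The log2 fold change of 0.72 with all libraries (SE 0.49, 95% interval -0.45 to 1.90, adjusted p 0.693) was 0.31 without WT1 (SE 0.13, 0.02 to 0.59, adjusted p 0.321, edgeR, BH).

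Tnfsf11 (ENSMUSG00000022015.8, chromosome 14, 78277445 to 78308043, minus strand) encodes RANKL, the ligand of RANK known from bone and lymph node development. It had the lowest mean of the 8 per kb of transcript in both genotypes, and stood at 8.87, 11.7 and 10.1 CPM in the WT libraries and 10.8, 12.0 and 9.43 CPM in the KO libraries. The genotypes overlapped. Its log2 fold change was 0.07 (SE 0.19, 95% interval -0.38 to 0.52, adjusted p 0.887), and -0.01 without WT1 (SE 0.18, -0.41 to 0.38, adjusted p 0.987, edgeR, BH).

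**Figure D2:**
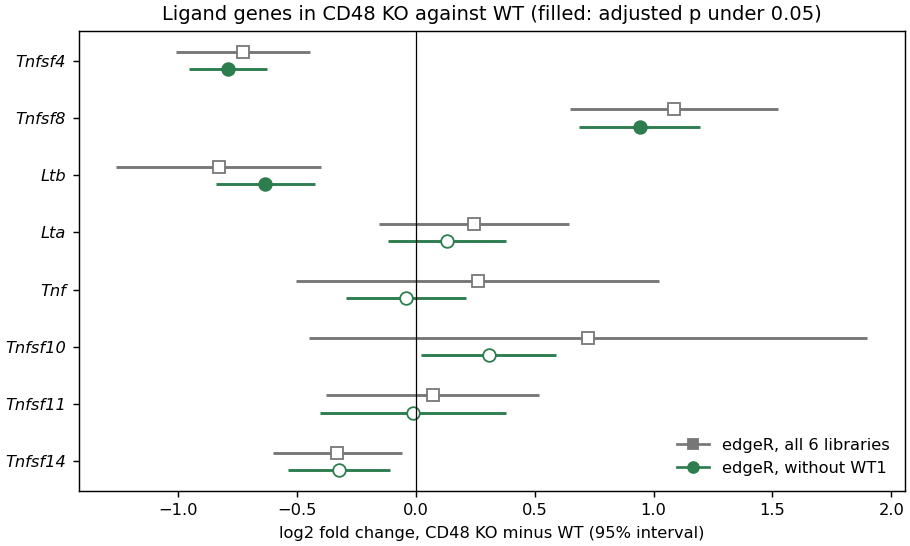
Log2 fold change of each ligand gene, CD48 KO minus WT, with its 95% interval from edgeR's fit with all 6 libraries (grey squares) and without WT1 (green circles). Filled symbols have a BH adjusted p under 0.05. Only Tnfsf4 (-0.79), Tnfsf8 (0.94) and Ltb (-0.63) without WT1 are filled, and the intervals of these 3 are narrower there than with WT1.

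The 8 genes rested on 121 (Tnfsf10 in WT1) to 4008 (Tnfsf4 in WT3) counts a library. The common biological coefficient of variation over all genes was 0.258 with all 6 libraries and 0.109 without WT1. The effect of WT1 differed from gene to gene. Tnf in WT1 was lower than the mean of WT2 and WT3 by a log2 difference of -1.21, where 1549 genes with transcripts within 20% of its length had a median of 0.28. For Tnfsf10 the difference was -2.03, against a median of -0.32 over 2785 genes of like length. Of these genes of like length, 5.1% lay below Tnf and 6.3% below Tnfsf10. Tnfsf4, Tnfsf8, Ltb and Tnfsf14 differed by -0.22, -0.48, 0.52 and 0.01. With offsets that removed each library's trend on transcript length, edgeR called 0 of the 8 with all libraries, against 4 of 13053 genes. At an unadjusted p under 0.05, 3 of the 8 passed there, against 1059 of the 13053. Without WT1 these offsets gave the same 3 calls as edgeR without offsets, against 230 of 13369 genes.

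**Figure D3:**
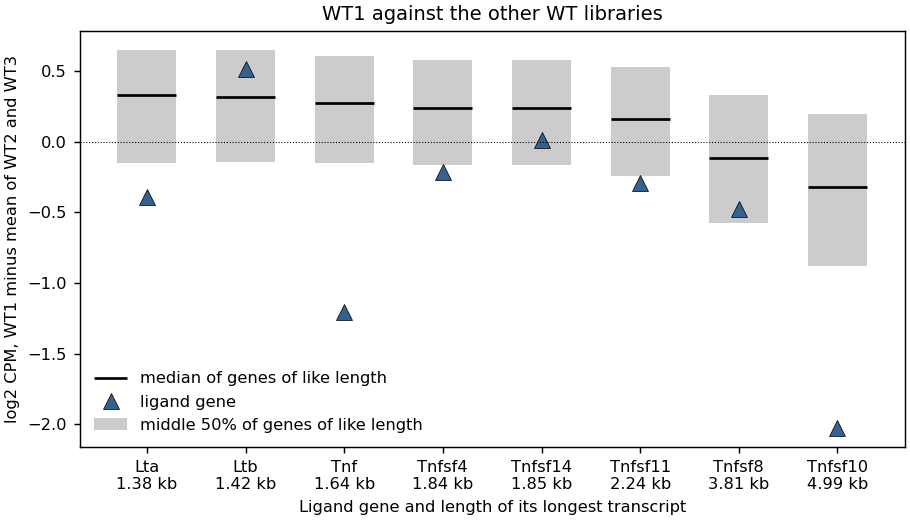
Log2 CPM of WT1 minus the mean of WT2 and WT3 for each ligand gene (triangles), ordered by the length of its longest transcript. Black lines give the median and grey boxes the middle 50% of tested genes whose transcripts are within 20% of that length. Tnf (-1.21) and Tnfsf10 (-2.03) lie below their boxes, as do Lta (-0.39), Tnfsf4 (-0.22) and Tnfsf11 (-0.29) by smaller steps.

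Levels of different genes were compared per kb of the longest annotated transcript. In WT the order of the means was Lta at 108.9 ± 24.1, Tnfsf4 at 75.9 ± 6.60 and Ltb at 65.9 ± 14.3 CPM per kb (SD, n = 3). Then came Tnfsf14 at 24.3 ± 0.781, Tnf at 17.1 ± 6.93 and Tnfsf8 at 8.91 ± 1.86 CPM per kb (SD, n = 3). Tnfsf10 at 5.24 ± 3.17 and Tnfsf11 at 4.57 ± 0.630 CPM per kb came last (SD, n = 3). The libraries of Tnfsf4 and Ltb overlapped in this order, as did those of Tnf and Tnfsf8, Tnfsf8 and Tnfsf10, and Tnfsf10 and Tnfsf11. The lymphotoxin genes and the OX40 ligand gene thus held the upper places. In KO the means were 129.0 ± 4.27 for Lta, 45.9 ± 2.81 for Tnfsf4 and 37.0 ± 3.76 for Ltb, in CPM per kb (SD, n = 3). Tnf (20.5 ± 2.04), Tnfsf14 (19.3 ± 0.336) and Tnfsf8 (18.9 ± 1.96) overlapped there, whereas in WT every Tnfsf14 library lay above every Tnfsf8 library.

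**Figure D4:**
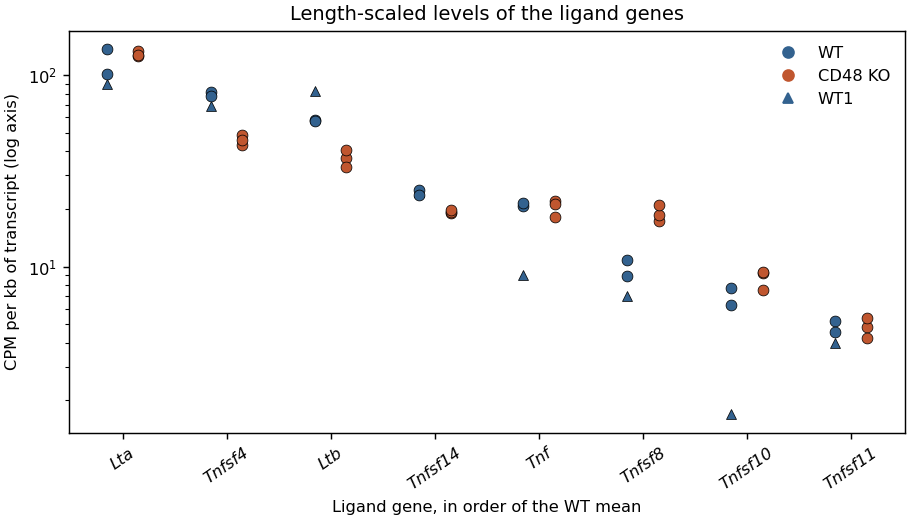
Level of each ligand gene in each library, in CPM per kb of the longest transcript on a log axis, ordered by the WT mean. Blue circles and triangles are WT libraries (triangle WT1) and orange circles CD48 KO libraries. Tnfsf8 moves up beside Tnf and Tnfsf14 in KO, and Tnfsf4 and Ltb move away from Lta.

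The receptors of the 8 ligands were read next, since a ligand acts through them and ILC2s can carry both. Of 11 listed receptor genes 9 were tested. Without WT1, Tnfrsf8 rose, 0 fell and 8 did not pass, and the median log2 fold change was -0.14 (0.0005 over all genes), against -0.02 with all 6 libraries. Tnfrsf8 encodes CD30, the receptor of the Tnfsf8 product. It stood at 134.1, 115.5 and 118.0 CPM in the WT libraries and at 193.0, 197.9 and 206.7 CPM in the KO libraries. Receptor and ligand were thus both higher in every KO library than in any WT library, as were 10.2% of all tested genes. The log2 fold change of Tnfrsf8 was 0.70 with all libraries (SE 0.11, adjusted p 0.464, edgeR, BH) and 0.77 without WT1 (SE 0.07, adjusted p 7.72e-05). On all 6 libraries it was called by DESeq2 (adjusted p 1.23e-05, BH) and by quality-weighted limma-voom (adjusted p 0.00110, BH). With all 6 libraries edgeR called 0 of the 9, and 1 had an unadjusted p under 0.05. For this list and those below, edgeR's shares over all genes without WT1 were 1.82% called and 13.7% at an unadjusted p under 0.05. With all 6 libraries these shares were 0.03% and 6.89%.

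Tnfrsf4, which encodes OX40, did not pass. It was at 33.9, 21.03 and 18.4 CPM in the WT libraries and at 20.3, 25.7 and 26.4 CPM in the KO libraries, and its log2 fold change was -0.02 (95% interval -0.63 to 0.60) and, without WT1, 0.30 (-0.02 to 0.62). Tnfrsf1b, the TNF receptor of lymphocytes, was the most abundant receptor of the list, at 345.8 to 380.3 CPM in the 5 libraries other than WT1 and 138.5 CPM in WT1. Its log2 fold change was 0.38 with all libraries (95% interval -0.43 to 1.20) and 0.06 without WT1 (-0.07 to 0.18), neither past the test. Tnfrsf1a, the other TNF receptor, and the lymphotoxin β receptor gene Ltbr stayed under 3.2 CPM in every library. Tnfrsf14, the HVEM gene, stayed under 1 CPM and was not tested. Tnfrsf11a, the RANK gene, was at 37.9 to 55.6 CPM and had a log2 fold change of -0.13 (adjusted p 0.803, edgeR, BH), and -0.22 without WT1 (adjusted p 0.577).

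Among 12 tested genes for other TNF receptors 1 rose without WT1, 0 fell and 11 did not pass, with a median log2 fold change of 0.24 (0.16 with all libraries). Tnfrsf9, the gene of 4-1BB (a costimulatory receptor), was at 112.0, 233.8 and 177.3 CPM in the WT libraries and at 401.3, 468.9 and 386.9 CPM in the KO libraries. The genotypes did not overlap, where 10.2% of all tested genes lay higher in every KO library than in any WT library. Its log2 fold change was 1.26 (adjusted p 0.577, edgeR, BH) and 1.03 without WT1 (adjusted p 0.0321). Its ligand gene Tnfsf9 was at 19.1 to 23.7 CPM over the 6 libraries, with a log2 fold change of 0.06 (adjusted p 0.873, edgeR, BH), and 0.16 without WT1 (adjusted p 0.674). The costimulatory receptor genes Tnfrsf18 (GITR) and Tnfrsf25 (DR3) did not pass: their log2 fold changes were -0.09 and -0.06, and 0.11 and -0.08 without WT1. With all 6 libraries edgeR called 0 of the 12 (2 at an unadjusted p under 0.05), and DESeq2 called Tnfrsf9. Without WT1, DESeq2 called Tnfrsf9 and Tnfrsf13b, the TACI gene, where it called 412 of 13643 genes. Tnfrsf13b was at 14.2, 8.08 and 11.95 CPM in the WT libraries and 18.3, 20.04 and 14.96 CPM in the KO libraries, with no overlap. It did not pass in edgeR, at 0.64 with all libraries (adjusted p 0.690, BH) and 0.81 without WT1 (adjusted p 0.0663).

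Of 10 other ligand genes listed, 5 were in the table and 2 were tested, Tnfsf9 and Tnfsf12, and neither passed. Tnfsf13b, Cd70 and Fasl stayed under 1 CPM in each library, and the remaining 5 were not found in the table under their symbols. In the arm from the receptors to NF-κB, 0 of 25 genes passed in edgeR with all libraries (2 at an unadjusted p under 0.05, 0 by DESeq2). Without WT1, 0 of 25 passed in edgeR (4 at an unadjusted p under 0.05, against 13.7% of all genes). In that set DESeq2 called Chuk, an IκB kinase gene (edgeR 0.46 with all libraries and 0.28 without WT1). The median log2 fold change was 0.15 with all libraries and 0.05 without WT1. The 3 most abundant, Casp8, Nfkb1 and Nfkb2, had values of -0.03, -0.07 and -0.05 with all libraries and 0.08, 0.16 and -0.04 without WT1, so the signs of Casp8 and Nfkb1 rest on WT1. Of 7 genes for the shedding of membrane ligands 0 passed in edgeR, with 0 at an unadjusted p under 0.05 with all libraries and 1 without WT1. Among them Adam10, Frmd8 and Adam17, the last the gene of the TNF-cleaving protease, had values of 0.15, 0.0033 and 0.20 with all libraries and 0.16, -0.05 and -0.08 without WT1, so the signs of Frmd8 and Adam17 rest on WT1. Of 10 genes for proteins that bind AU-rich or stem-loop elements in transcripts such as Tnf, 0 passed in edgeR, with 4 at an unadjusted p under 0.05 with all libraries and 0 without WT1. The most abundant, Elavl1, Zfp36l2 and Hnrnpd, had values of -0.65, -0.99 and -1.85 with all libraries and -0.42, -0.60 and -0.71 without WT1. DESeq2 called 0 genes of the shedding and decay lists in either set of libraries.

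**Figure D5:**
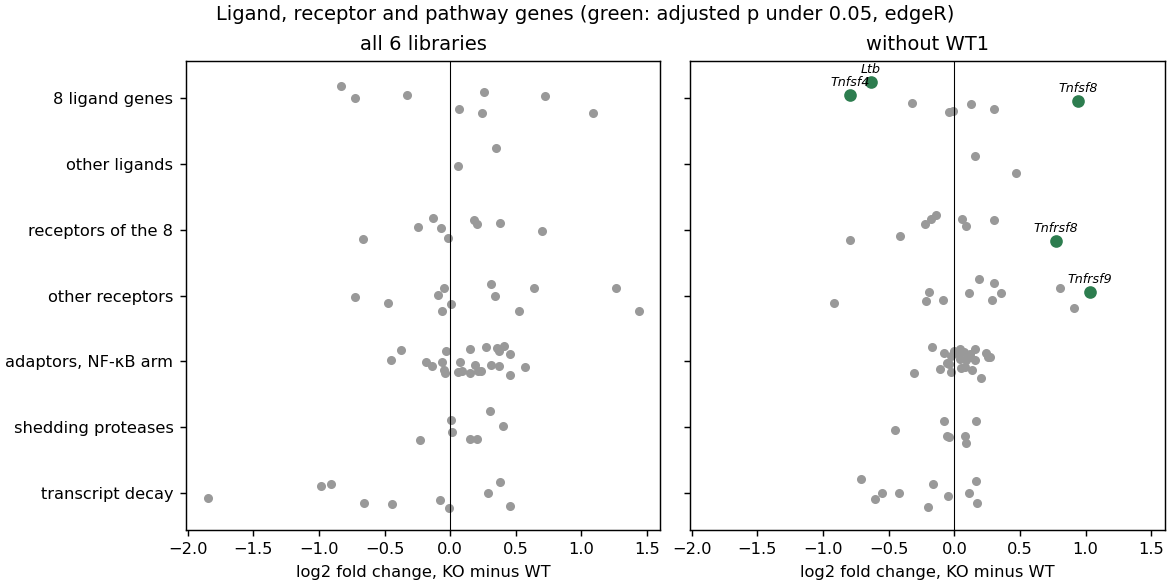
Log2 fold change (CD48 KO minus WT, edgeR) of each tested gene by list, with all 6 libraries at left and without WT1 at right. Green points with names have an adjusted p under 0.05. Without WT1 these are Tnfsf4, Tnfsf8, Ltb, Tnfrsf8 and Tnfrsf9, and with all 6 libraries there are 0.

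The sorted population was checked against markers. All 16 listed ILC2 markers were in the table, and their summed level was 14733 to 19189 CPM in WT and 16246 to 17148 CPM in KO. The largest part was Il5, at 5597 to 10007 CPM in WT and 6841 to 7642 CPM in KO, so the sum does not measure purity. With all 6 libraries edgeR called 0 of the 16 (3 at an unadjusted p under 0.05, 0 by DESeq2). Without WT1, 2 rose and 0 fell: the IL-2 receptor gene Il2ra was at 0.31 (0.32 with all 6) and the cytokine gene Il5 at 0.29. Il5 was at -0.02 with all 6 libraries, so its direction rests on WT1, which had 10007 CPM against 6841 to 7642 CPM in KO. Lymphotoxin and OX40 ligand genes are also used by other lymphocytes and by antigen-presenting cells, so those markers are given beside them. Of 12 T cell markers 8 were in the table. Most of their sum, given with Ltb, came from the T cell receptor constant genes Trbc2 and Trbc1. Cd3d and Trac stayed under 1 CPM, and Cd3e was at 0.492 to 2.67 CPM. Cd4, Cd8a, Cd8b1 and Cd5 were not found in the table under these symbols. Without WT1, Cd3g (log2 fold change -0.92) and Trbc2 (-0.39) fell, and 4 of 6 tested markers did not pass. These genes were at -1.19 and -0.47 with all 6 libraries, where edgeR called 0 of the 6 (3 at an unadjusted p under 0.05), whereas DESeq2 called Cd3g. Cd28 went the other way, at 0.07, 2.27 and 3.09 CPM in WT and 2.44, 3.20 and 4.06 CPM in KO, with overlap. Cd3g and Trbc2 were lower in KO, as were Ltb and Tnfsf4. Among the WT libraries, WT1 was highest for Cd3g (41.0 CPM), Trbc2 (146 CPM) and Ltb (116.8 CPM), and lowest for Tnfsf4 (126.2 CPM). In WT2 and WT3, Cd3g was at 28.2 and 22.9 CPM, Trbc2 at 130.2 and 120.3 CPM and Tnfsf4 at 149.5 and 143.9 CPM. The part of the T cell markers in the Ltb and Tnfsf4 results was not tested. The 2 B cell markers summed to 14.1 to 19.97 CPM in WT and 12.2 to 17.2 CPM in KO. The 9 macrophage and dendritic cell markers summed to 69.7 to 74.4 and 57.9 to 64.9 CPM, mostly Xcr1, with Mrc1, Flt3 and C1qa under 1 CPM. The 8 lung epithelial markers summed to 31.4 to 83.2 CPM in WT and 10.1 to 24.1 CPM in KO, and Epcam fell without WT1 (-0.83). Epcam was at -0.82 with all 6 libraries and was called by DESeq2 but not by edgeR. Markers of natural killer cells, ILC3s and granulocytes summed to at most 1.47 CPM in each library. Of these lists (7, 5 and 7 genes), only 2 genes each were in the table. Of 7 endothelial and stromal markers 3 were in the table, with sums of 29.1 to 40.9 CPM in WT and 40.1 to 41.9 CPM in KO. Most of this was Pecam1, which was higher in every KO library than in any WT library, as were 10.2% of all tested genes. It did not pass in edgeR (0.20 with all libraries and 0.08 without WT1).

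The genes most like each ligand gene were named by the highest Pearson's r of log2 CPM over the 6 libraries among 8222 genes (mean of 10 CPM or more), as a description. For Tnfsf4 these were Cd53 (0.986), H2-K1 (0.982) and Ifi209 (0.979). For Tnfsf8 they were Gtse1 (0.994), Esco2 (0.994) and Pigq (0.993), of which the first and second have roles in the dividing cell cycle. For Ltb they were Samm50 (0.995), Trbc1 (0.994) and Rcan1 (0.994). For Tnfsf14 they were Psmb9 (0.998), an immunoproteasome gene that lies near Ltb, Pglyrp2 (0.997) and Saraf (0.996). Lta ran with Narf, Tspan14 and Bcl2 (0.979 to 0.996). For Tnf, Hivep2, Cmtm6 and Hyou1 had 0.9991 to 0.9994, and for Tnfsf10 Parp1, Dnajc13 and Gak had 0.9988 to 0.9998, and in both ligand genes WT1 was the far point. Tnfsf11 was nearest to Eml2, Kdm7a and Supv3l1 (0.971 to 0.987). All points share the same 6 libraries, and with so few points many genes reach high values.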

How the data were processed

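The 6 RNA-seq samples of cultured lung ILC2s (3 WT, 3 CD48 KO) were grouped by their titles. Per the labels' protocols, 10 pg of RNA per sample was turned into cDNA with a SMARTer Ultra Low Input kit. Partek 10.0, STAR 2.7.8, mm10 and DESeq2 appear in the submitters' processing notes, with no roles. Counter, annotation and strand setting were not given in the sources used. Values deposited by the authors were taken as estimated counts, not normalized (none below 0, library totals that differ, 60.2% of values above 0 whole within 0.001). They were rounded before testing. The design text mentions duplicates, but each genotype has 3 samples here.

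Genes kept by filterByExpr (minimum count 10, minimum total 15) entered edgeR 4.0.16 under R 4.3.3 (robust quasi-likelihood fit, TMM, genotype only), with BH adjustment over all genes. SEs were derived from the F statistic, and intervals use the fit's degrees of freedom. DESeq2 1.42.0 and limma 3.58.1 served as alternatives, besides other size factors, filters, length offsets (lowess, span 0.3), the replicate block and libraries left out. Positions and lengths are from GENCODE M21 (GRCm38, 97.6% of symbols matched), windows run between gene starts, and log2 CPM used a prior count of 2. No ligand gene overlaps a protein-coding gene. The microRNA Mir6973a overlaps Ltb and Mir6974 overlaps Lta. Replicates of a genotype differed by more than sampling noise (chi-square per gene 5.22 to 135). Named genes were the 8 ligand genes, Cd48, called list members (otherwise the 3 most abundant) and the 3 genes most like each ligand gene; others are named after their values were seen. The members and lists were chosen with earlier results of these data known.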

Additional observations from a re-analysis of the deposited data

How the results depend on the processing

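The number of genes called by edgeR (4 with all 6 libraries) ran from 0 to 248 when each library was left out in turn, and the number of ligand genes called from 0 to 3. The 248 and the 3 came without WT1, and without KO1 or KO3 edgeR called 0 genes (662 and 335 at an unadjusted p under 0.05). DESeq2 called 108 genes, limma-voom with quality weights 95 and edgeR with the replicate block 0 (776 at an unadjusted p under 0.05), with 3, 3 and 0 ligand genes. Without WT1, DESeq2 called 412 genes, limma-voom 194 and edgeR with length offsets 230, each with 3 ligand genes. Leaving out WT2, WT3, KO1, KO2 or KO3 besides WT1 gave 89, 141, 517, 73 and 65 genes, each with 3 ligand genes. Where 1 WT library is left, it is assumed to vary like the KO libraries. Within 2 Mb of the ligand genes 0 genes were called with all libraries and 13 without WT1, where 1.82% of all genes were called. Most lay near the Ltb, Tnf and Lta cluster (10 of 131 tested near Ltb, all lower), and 2 of 21 lay near Tnfsf4, both lower. Near Tnfsf10, 1 of 7 was called, Ect2, which was higher (0.48, and 0.51 with all 6 libraries). The number of ligand genes whose genotypes do not overlap was 4 with and without WT1, the second count added after the data were seen. Leaving out a library cannot lower that count.

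Tnfsf4, Tnfsf8, Ltb, Tnfsf10 and Tnfsf14 kept their direction in all 25 fits, which share libraries. The log2 fold changes of the other 3 crossed 0 in some fits, none past the test. When 1 library, or WT1 and another, was left out, Lta ran from -0.079 (without WT1 and WT3) to 0.44 (without WT2). Tnf ran from -0.090 (without WT1 and KO1) to 0.46 (without WT3), and Tnfsf11 from -0.13 (without WT1 and WT3) to 0.18 (without WT2). With quality weights Tnf was at -0.015 and Tnfsf11 at -0.0055. Without WT1, Tnf was at -0.041 by edgeR, -0.044 by DESeq2, -0.053 by limma-voom and -0.019 with length offsets. Tnfsf11 was at -0.014, -0.017, -0.0011 and -0.012 in the same order. The cause was not tested.

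No pairing of samples by replicate number was seen. Deviations from the genotype means correlated at -0.046, -0.036 and -0.009 for numbers 1, 2 and 3, and no sample correlated best with its own number. The WT mean includes WT1, which ties the deviations of WT2 and WT3 to it, so these values cannot exclude a pairing. With the replicate block, Tnfsf4, Tnfsf8 and Ltb had log2 fold changes of -0.73, 1.10 and -0.81. Levels per kb over the union of exons moved by less than the spread between libraries for all 8 genes.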
